A study of Homo sapiens with 88 samples.

Results

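CYFIP1 and 8 genes for the other subunits of the WAVE actin complex were examined in small cell lung cancer (SCLC) lines that received 552A or the vehicle DMSO. The 9 genes were CYFIP1, CYFIP2, WASF1, WASF2, WASF3, NCKAP1, ABI1, ABI2 and BRK1. All probe sets annotated to 1 of them alone were read, which gave 14 probe sets for 7 genes out of 54675 probe sets and 19775 genes on the array. WASF1 and ABI2 had no such probe set in the annotation used and were not analysed here. The set was chosen because CYFIP1 responded to 552A in these arrays, so the levels and changes of CYFIP1 are given as a description with no test. The other 6 genes with a probe set came in as subunits of the same complex, and their changes were tested over all 15352 genes that passed a filter on dim signal.

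Expression was read on 88 Affymetrix HG-U133 arrays of 9 established SCLC lines, a neuroendocrine lung tumour. NCI-H146, NCI-H446, NCI-H510, NCI-H526, COLO668 and SHP-77 received 552A or DMSO for 2, 4 or 7 days, and H69, H2171 and H1417 for 4 days, giving 42 groups of 2 to 4 arrays. Cells of all groups grew in RPMI with 10% serum, and the treatment protocol names DMSO or 1 µM GSK2879552, which blocks LSD1, the histone demethylase encoded by KDM1A. No label states that 552A is that compound, so the arm keeps its name here. Whether the arrays of a group stem from separate cultures is not stated. Levels are log2 signals, and a change is the log2 signal under 552A less that under DMSO. Levels of different probe sets are not compared.

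The array medians lay between 7.358 and 7.455. The SCLC markers INSM1, CHGA, SYP and NCAM1 had means above the median signal of 7.41 in all 9 lines. Markers of other cells were mixed, with 1 of 4 immune, 4 of 5 fibroblast and 3 of 4 endothelial genes above the median in at least 1 line under DMSO. CD3E, PECAM1 and VWF were above it in all 9 lines, COL1A2 reached 12.00 in H69 and CDH5 10.91 in NCI-H446. PTPRC of immune cells and KDR of endothelium stayed below 6.091, the typical lower quartile of an array, in every line. The part of these markers in the results was not tested. KDM1A lay between 11.44 and 12.74 in DMSO arrays and was not called in any line, with adjusted p values of 0.0611 or more. In all, 6 arrays stood apart and are named as in doubt where a result rests on them. For 5 of them, all of day 7 in SHP-77 or COLO668, the difference between the 3' and 5' control probe sets of ACTB, which reflects RNA integrity, was 0.883 or more after the median was set to 0, against at most 0.731 in the others. The last was NCI-H446 DMSO day 4 replicate 2, with an interquartile range of 2.56.

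The WAVE regulatory complex holds 5 kinds of subunit: a CYFIP protein, NCKAP1, an ABI protein, BRK1 and a WASF (WAVE) protein. CYFIP and NCKAP1 form a platform that keeps WASF inactive. When the GTPase Rac binds CYFIP, the tail of WASF is released and switches on the Arp2/3 complex, which nucleates the branched actin of lamellipodia. CYFIP1 also has a role outside actin, since it binds FMRP and the cap-binding protein eIF4E and holds back translation at neuronal synapses. CYFIP2 is its close relative, and WASF2 and WASF3 are alternative effector subunits.

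The annotated starts of CYFIP1 and CYFIP2 are shown because these relatives fill the same place in the complex while their signals under 552A differed, as described below. Each sequence is the 250 bases before the outermost annotated start, from RefSeq on GRCh38.p14, read 5′ to 3′ on the strand of the gene. Capitals mark AATC and its reverse complement GATT, the core motif of GFI1-type repressors, which recruit LSD1. The CYFIP1 window is chr15:22980899-22981148 on the minus strand, and the CYFIP2 window is chr5:157265873-157266122 on the plus strand.
CYFIP1: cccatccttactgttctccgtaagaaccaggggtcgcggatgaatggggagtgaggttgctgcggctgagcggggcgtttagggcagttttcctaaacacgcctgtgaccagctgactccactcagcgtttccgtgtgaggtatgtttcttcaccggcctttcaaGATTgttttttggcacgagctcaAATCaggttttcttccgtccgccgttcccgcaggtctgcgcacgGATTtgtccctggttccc
CYFIP2: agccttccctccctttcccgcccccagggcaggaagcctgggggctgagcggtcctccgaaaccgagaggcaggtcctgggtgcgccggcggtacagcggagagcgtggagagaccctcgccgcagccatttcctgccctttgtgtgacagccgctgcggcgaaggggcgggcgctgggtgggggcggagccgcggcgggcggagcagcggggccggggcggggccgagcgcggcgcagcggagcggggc
The CYFIP1 window held 1 AATC and 2 GATT, 17 CG dinucleotides and 55.6% G and C. The CYFIP2 window held neither motif, 30 CG dinucleotides and 76.4% G and C. The contrast depends on the start shown, since both genes have other annotated starts. The CYFIP1 window at chr15:22980369-22980618 held neither motif, 28 CG dinucleotides and 78.4% G and C. Another, at chr15:22980850-22981099, held 1 AATC and 2 GATT. The second CYFIP2 window, at chr5:157269074-157269323, held neither motif, 2 CG dinucleotides and 52.4% G and C. AATC or GATT occurred in 64.8% of the 35114 windows of this length in the table, and the median window had 11 CG dinucleotides. The letters describe these windows alone and are no evidence of binding.

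CYFIP1, the subunit that receives Rac, had a higher signal under 552A than under DMSO in every line and on every day measured. Averaged over the days of a line, its change lay between 0.18 ± 0.04 (SE) in NCI-H446 and 0.45 ± 0.08 in H1417, which is 1.13-fold to 1.37-fold. All 552A arrays lay above all DMSO arrays of the same line and day in 21 of 21 line-days, and in 20 with quantile normalization. Over all genes tested, 22.1% of gene and line-day pairs had that order, and 4 genes, or 0.0261%, had it in all 21. Since CYFIP1 was chosen for this contrast, nothing is read from those shares. All 552A arrays lay below in 23% of pairs, so that 45% of pairs had no overlap. The other 3 genes were IGSF3, PDGFC and SEPTIN10, named after their values were seen. The gene lies at chr15:22867052-22980898 on GRCh38.p14 and was read by the single probe set 208923_at.

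In SHP-77, CYFIP1 had 11.87 and 11.78 in 552A arrays of day 2, against 11.70 and 11.59 in DMSO arrays. At day 4 the SHP-77 signals were 11.84 and 11.78 under 552A, against 11.67 and 11.64 under DMSO. At day 7 they were 11.80, 11.65, 11.86 and 11.74 under 552A, against 11.26 and 11.64 under DMSO. The groups did not overlap, but the lowest 552A array and the higher DMSO array of day 7 were nearly level, and the low DMSO array is one of those in doubt. Without the arrays in doubt the SHP-77 change was 0.16, where all arrays gave 0.21 ± 0.04.

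NCI-H526 gave 12.14, 12.17 and 12.11 under 552A at day 2, against 12.04 and 11.98 under DMSO. At day 4 this line had 12.15 and 12.21 under 552A, against 12.05 and 11.97 under DMSO. Its day 7 signals were 12.25 and 12.28 under 552A, against 12.01 and 11.96 under DMSO. The DMSO arrays of all days stayed together and the 552A arrays of each day lay above them, a change of 0.19 ± 0.04 over the days.

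For NCI-H510 the day 2 signals were 11.74 and 11.68 under 552A, against 11.47 and 11.43 under DMSO. The day 4 signals were 11.82 and 11.76 under 552A, against 11.56 and 11.53 under DMSO. The day 7 signals were 11.75 and 11.73 under 552A, against 11.58 and 11.48 under DMSO. The lowest 552A array of any day was above the highest DMSO array, and the change over days was 0.24 ± 0.04.

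COLO668, the line with the lowest DMSO mean, had 11.41 and 11.35 under 552A at day 2, against 11.27 and 11.24 under DMSO. Day 4 arrays gave 11.55 and 11.59 under 552A, against 11.30 and 11.34 under DMSO. Day 7 arrays gave 11.61 and 11.52 under 552A, against 11.42 and 11.28 under DMSO. Here the 552A arrays of day 2 overlapped the DMSO arrays of day 7, although no single day had an overlap. The change over days was 0.20 ± 0.04, and 0.23 without the arrays in doubt.

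NCI-H146 was the most even line, with 12.22 and 12.21 under 552A at day 2, against 12.00 and 11.94 under DMSO. At day 4 it had 12.19 and 12.23 under 552A, against 12.01 and 11.96 under DMSO. At day 7 it had 12.23 and 12.23 under 552A, against 12.00 and 11.98 under DMSO. All 6 of its 552A arrays lay above all 6 of its DMSO arrays, with a change of 0.23 ± 0.04.

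NCI-H446 had 11.69 and 11.62 under 552A at day 2, against 11.53 and 11.48 under DMSO. At day 4 the values were 11.71 and 11.73 under 552A, against 11.57, 11.40 and 11.70 under DMSO. At day 7 the values were 11.82 and 11.78 under 552A, against 11.63 and 11.53 under DMSO. Day 4 came closest to an overlap in this line, and its lowest DMSO array is one of those in doubt. The change over days was 0.18 ± 0.04 with all arrays and 0.15 without those in doubt.

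Of the lines sampled at day 4 alone, H69 had 12.46 and 12.42 under 552A, against 12.15 and 12.07 under DMSO. H2171 had 12.34 and 12.36 under 552A, against 12.14 and 12.08 under DMSO. H1417 had 11.83 and 11.90 under 552A, against 11.36 and 11.47 under DMSO. No group overlapped its counterpart, and the changes were 0.33 ± 0.08, 0.24 ± 0.08 and 0.45 ± 0.08 in that order of lines.

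**Figure D1:**
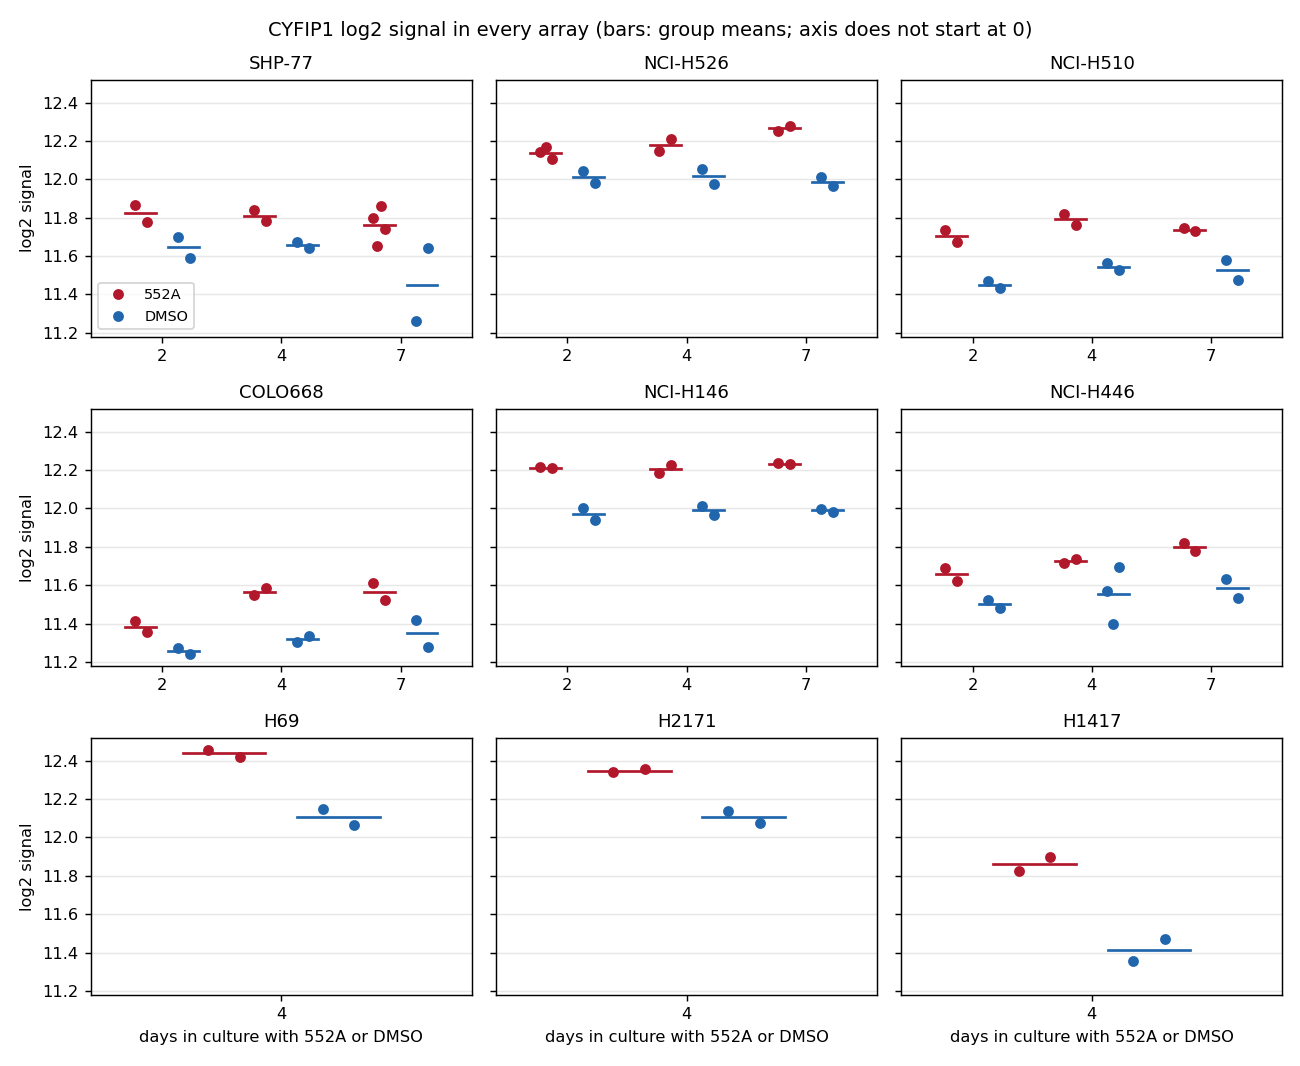
Log2 signal of CYFIP1 in each of the 88 arrays by line (panels) and days of treatment (x axis), 552A in red to the left of DMSO in blue, with a bar at each group mean. In all 21 line-days every 552A array lies above every DMSO array, with the smallest separations in SHP-77 at day 7 and NCI-H446 at day 4.

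Over single line-days the CYFIP1 change ranged from 0.13 to 0.45 with a median of 0.22. In the 6 time course lines the mean change was 0.18 ± 0.06 at day 2, 0.20 ± 0.04 at day 4 and 0.25 ± 0.04 at day 7 (SD over lines). At day 4 over all 9 lines it was 0.25 with an SD of 0.094, and 18.4% of genes tested had a smaller SD over lines. Within each line the CYFIP1 change stood between the 87.3 and the 95.6 percentile of all genes tested. Genes with a larger rise than CYFIP1 were thus present in every line.

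CYFIP1 also varied little between the lines under DMSO. Its DMSO mean was 12.11 ± 0.06 (SD, n = 2) in H69 and 12.11 ± 0.04 (n = 2) in H2171, whose arrays overlapped. NCI-H526 followed at 12.01 ± 0.04 (n = 6) and NCI-H146 at 11.98 ± 0.03 (n = 6), which also overlapped each other. A gap of 0.40 then separated SHP-77 at 11.58 ± 0.16 (n = 6), and the ranges of these neighbours did not overlap. NCI-H446 at 11.55 ± 0.10 (n = 7), NCI-H510 at 11.51 ± 0.06 (n = 6), H1417 at 11.41 ± 0.08 (n = 2) and COLO668 at 11.31 ± 0.06 (n = 6) each overlapped the next. The lines thus formed a high and a low group of CYFIP1 signal, and the whole range of 0.80 compares with a median range of 1.44 over all genes tested, of which 20.1% had a smaller one. In bulk RNA a smaller share of cells with a transcript and less of it per cell cannot be told apart.

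**Figure D2:**
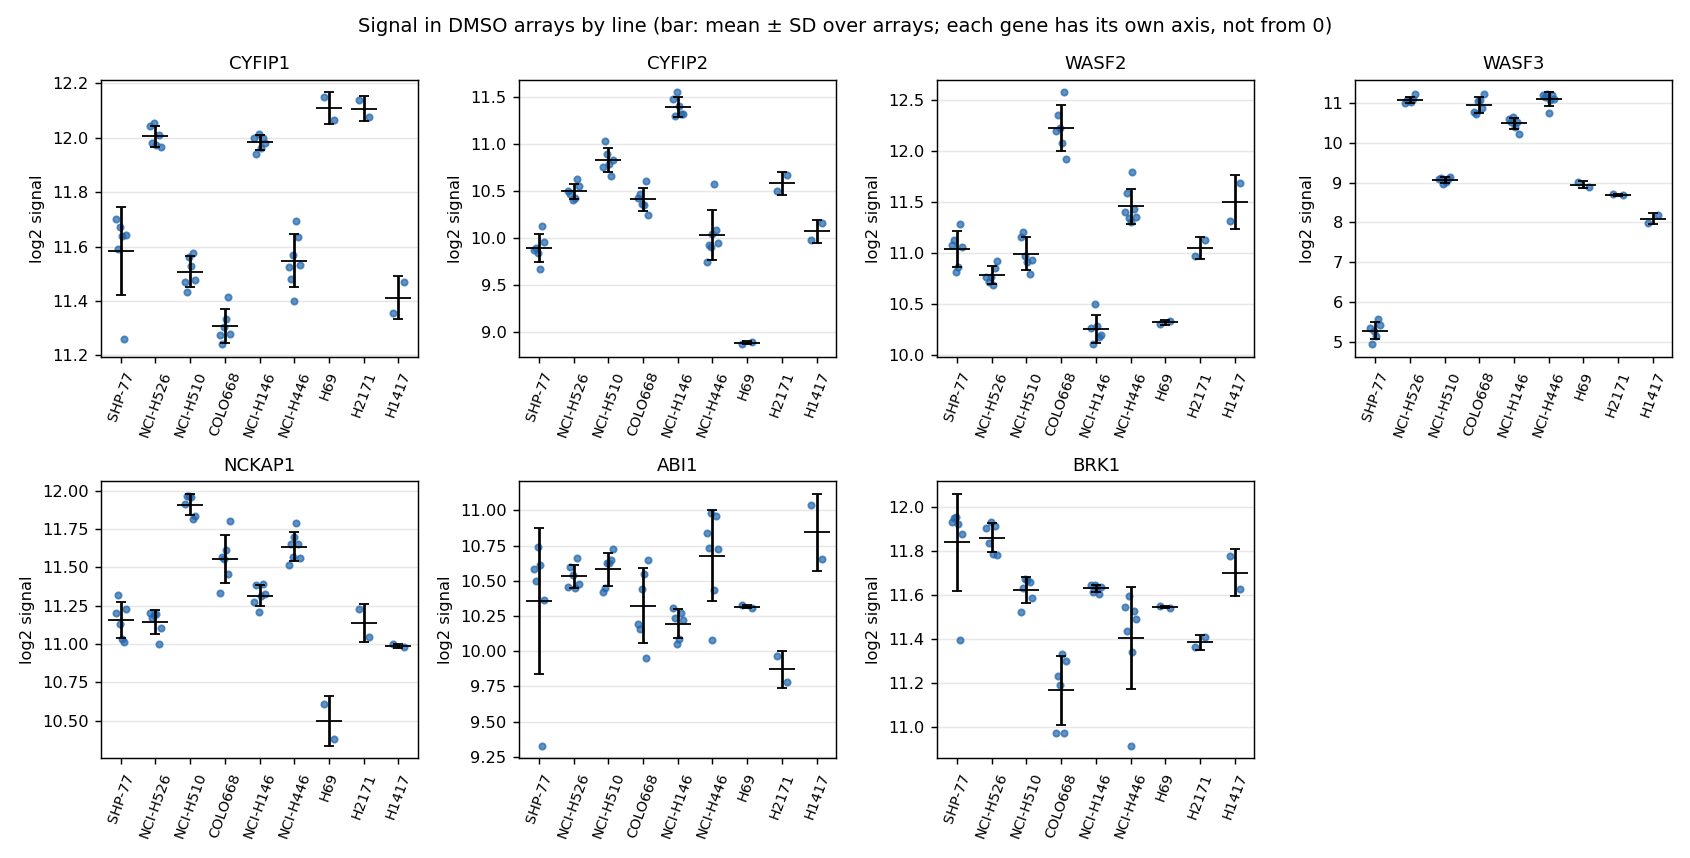
Log2 signal in DMSO arrays (points) for the 7 genes with a probe set, by line on the x axis, with the mean and SD over arrays in black; each gene has its own y axis. WASF3 has the widest spread, with SHP-77 at 5.29, while CYFIP1 and BRK1 stay within 0.80 and 0.70.

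In changes averaged over the days of a line, no other subunit was called in more than 1 line. Of 54 pairs of partner gene and line, 2 were called higher under 552A and none lower at an adjusted p below 0.05, namely CYFIP2 in SHP-77 and WASF3 in COLO668. The background was 10.3% of all gene and line pairs in either direction, 5.94% up and 4.38% down. At day 4 with the line as the replicate, 0 of 6 partner genes were called by limma, 0 also at an unadjusted p below 0.05, against a background of 8 of 15352 genes, or 0.0521%, after adjustment and 12.5% at an unadjusted p below 0.05. In that comparison the upper 95% limits of the partner genes lay between 0.01 and 0.23, where the mean of CYFIP1 was 0.25. CYFIP1 was chosen for this response, so nothing is read from the distance between them. With day 7 left out, neither pair was called. The arrays of a group may be technical repeats, so p values within a line measure the spread between arrays only.

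**Figure D3:**
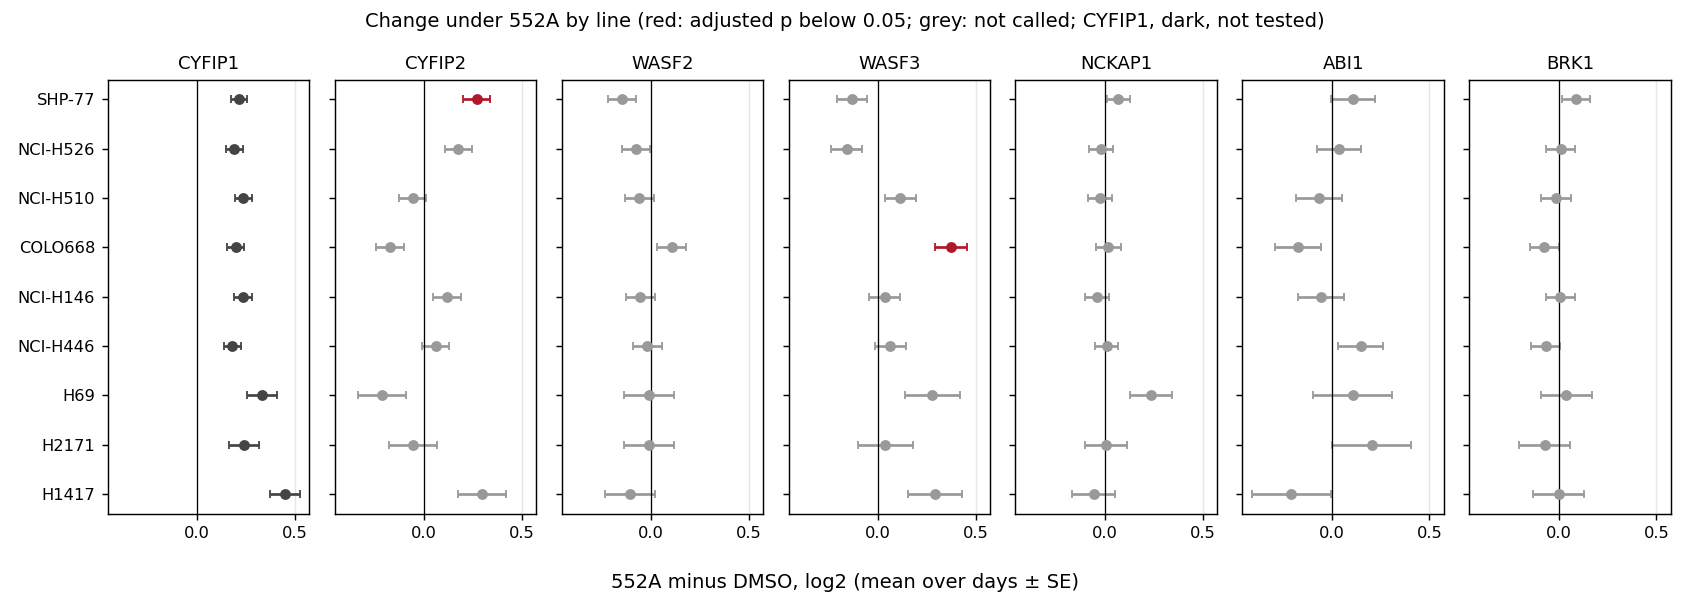
Change under 552A against DMSO in each line (y axis) for the 7 genes (panels), as the log2 difference averaged over days with its SE on the x axis. The 9 CYFIP1 values lie between 0.18 and 0.45, while the other genes scatter around 0, with calls for CYFIP2 in SHP-77 and WASF3 in COLO668 in red.

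CYFIP2, the relative of CYFIP1 at chr5:157266123-157395594, responded by line. In SHP-77 it had 10.14 and 10.03 in 552A arrays of day 2, against 9.87 and 9.90 in DMSO arrays. Day 4 gave 10.06 and 9.90 under 552A, against 9.84 and 9.66 under DMSO. Day 7 gave 10.55, 10.54, 10.21 and 10.37 under 552A, against 10.12 and 9.95 under DMSO. No day overlapped, where all 552A arrays lay above in 22.1% of all gene and line-day pairs. CYFIP2 rose in SHP-77 by 0.27 ± 0.07 (limma, adjusted p = 0.00676), where 3.87% of genes were called up. Day by day it was called at day 7 alone, with 0.38 (adjusted p = 0.0158), and 2 of those 552A arrays and 1 of the DMSO arrays are in doubt. With those arrays left out, 1 DMSO array remained at day 7 and the mean over days was 0.26. With the mean of both CYFIP2 probe sets it was 0.18 (adjusted p = 0.0465).

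In other lines CYFIP2 was not called. Its estimates were 0.30 ± 0.12 in H1417, 0.17 ± 0.07 in NCI-H526, -0.18 ± 0.07 in COLO668 and -0.21 ± 0.12 in H69. COLO668 arrays under 552A lay below all DMSO arrays on each of the 3 days, and NCI-H526 arrays lay above on each of the 3. In COLO668 the highest 552A array and the lowest DMSO array were nearly level at day 2, with 10.421 and 10.423. They were also nearly level at day 7, with 10.235 and 10.241. Without the arrays in doubt, which leaves 1 array per arm at day 7, the COLO668 change was -0.09. Over all genes, 23% of gene and line-day pairs lay below and 22.1% above. The share of genes apart on all 3 days of a line was not computed. Without the arrays in doubt, none of them from NCI-H526, CYFIP2 was called up in that line too (0.17, adjusted p = 0.0299). The equality of the response over the 6 time course lines was rejected by the moderated F test in limma (adjusted p = 0.00246), as it was for 38.1% of all genes. A mean of 0.01 ± 0.06 at day 4 (95% interval -0.13 to 0.15, adjusted p = 0.95) therefore joins lines of opposite sign.

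The second CYFIP2 probe set, 220999_s_at, was not called in SHP-77, where its change was 0.08 ± 0.07 (limma, adjusted p = 0.543). It was called up in NCI-H526 alone, by 0.20 ± 0.07 (adjusted p = 0.0429), beside 8.27% of all pairs of probe set and line called. In COLO668 its change was -0.10 ± 0.07. Its line-day changes had r = 0.746 with the first over 21 line-days, which share arrays and DMSO groups. DMSO arrays of the lines differed more in CYFIP2 than in CYFIP1, from 11.40 ± 0.10 (SD, n = 6) in NCI-H146 through 10.83 ± 0.13 (n = 6) in NCI-H510 to 8.88 ± 0.01 (n = 2) in H69. Between these lay H2171 at 10.58, NCI-H526 at 10.50, COLO668 at 10.41, H1417 at 10.07, NCI-H446 at 10.03 and SHP-77 at 9.89. The range of 2.51 was wider than that of 77.7% of genes. H69 thus had the top mean of CYFIP1 and the bottom mean of CYFIP2, but over the 9 lines the DMSO levels of the pair at day 4 had r = -0.04.

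NCKAP1, the platform partner of CYFIP at chr2:182909115-183038457, was not called in any line. Its estimates ran from -0.06 ± 0.11 in H1417 to 0.23 ± 0.11 in H69, and 15 of 21 line-days overlapped, where 45% of all gene and line-day pairs did not. The mean at day 4 was -0.01 ± 0.04 (95% interval -0.11 to 0.08, limma, adjusted p = 0.933). DMSO signals ran from 11.91 ± 0.07 (SD, n = 6) in NCI-H510 to 10.50 ± 0.16 (n = 2) in H69, a range of 1.41 near the median of all genes. NCI-H446, COLO668, NCI-H146, SHP-77, NCI-H526 and H2171 each overlapped a neighbour, whereas NCI-H510, H1417 and H69 overlapped none. A second probe set, 217465_at, ordered the lines only loosely in the same way (r = 0.33 over 9 lines) and was called in none, and the line-day changes of both had r = -0.07.

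ABI1, an adaptor that ties the complex to membrane and kinase signals, lies at chr10:26746596-26860958 and was called in no line. Its estimates ran from -0.21 ± 0.20 in H1417 to 0.20 ± 0.20 in H2171. In all, 13 of 21 line-days overlapped, where 45% of all gene and line-day pairs did not. The mean at day 4 was 0.04 ± 0.06 (95% interval -0.09 to 0.16, limma, adjusted p = 0.852). DMSO means of the lines spanned 0.97, from 10.84 ± 0.27 (SD, n = 2) in H1417 to 9.87 ± 0.13 (n = 2) in H2171. The SD within SHP-77 was 0.52 over 6 DMSO arrays, and the lowest of these, 9.33, is the day 7 array with the highest ACTB 3' minus 5' signal, 1.68. Of the other ABI1 probe sets, 209028_s_at gave the same top and bottom lines, and 1559890_a_at had a mean of 3.87 and did not pass the filter.

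BRK1, the smallest subunit, which stabilises the complex, lies at chr3:10115675-10127190. It was called in no line, with estimates from -0.07 ± 0.08 in COLO668 to 0.09 ± 0.07 in SHP-77. Its mean at day 4 was 0.01 ± 0.03 (95% interval -0.05 to 0.08, limma, adjusted p = 0.916). In all, 15 of 21 line-days overlapped, where 45% of all gene and line-day pairs did not. Over the lines its SD at day 4 was 0.062, smaller than that of all but 3.22% of genes. DMSO signals were also even, from 11.86 ± 0.07 (SD, n = 6) in NCI-H526 to 11.17 ± 0.16 (n = 6) in COLO668. The range of 0.70 was smaller than that of all but 16% of genes.

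WASF2, the widely expressed effector that activates the Arp2/3 complex, lies at chr1:27404230-27490167. It had negative estimates in 8 of 9 lines, but none was called, and the lowest was -0.15 ± 0.07 in SHP-77 (limma, adjusted p = 0.203). At day 4 the mean was -0.06 ± 0.03 (95% interval -0.12 to 0.01, adjusted p = 0.462). COLO668 stood against the others with 0.11 ± 0.08 over its days. At day 7 its arrays had 12.61 and 12.58 under 552A, against 12.58 and 11.92 under DMSO. The higher DMSO array was close to both 552A arrays, the day 7 change was 0.34 (adjusted p = 0.0423), and 1 array of each arm is in doubt. Without the arrays in doubt WASF2 rose in COLO668 by 0.22 over the days. That estimate rests on 1 array per arm at day 7, 12.61 under 552A against 11.92 under DMSO. At days 2 and 4 the COLO668 arrays of the 2 arms overlapped.

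WASF2 separated the DMSO means of the lines by 1.97, a range wider than that of 67.4% of genes. COLO668 was highest at 12.23 ± 0.22 (SD, n = 6) and did not overlap H1417, the next at 11.50 ± 0.26 (n = 2). NCI-H446 at 11.46, H2171 at 11.05, SHP-77 at 11.04, NCI-H510 at 11.00, NCI-H526 at 10.79 and H69 at 10.32 followed, and NCI-H146 was lowest at 10.26 ± 0.14 (n = 6). The order ran broadly against that of CYFIP1, H2171 excepted, with r = -0.81 between their DMSO levels at day 4 over 9 lines that share arrays and scaling. The other probe sets, 221725_at and 224563_at, gave r = 0.973 and 0.94 with the first over the line means under DMSO. Their line-day changes under 552A had r = 0.751 and -0.181 with those of the first. The estimates were higher under 552A in 3 and 4 of 9 lines for these probe sets, against 1 of 9 for the first, and the day 4 mean was -0.022 with the mean of all 3 probe sets.

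WASF3, the effector best known from cell migration and invasion, lies at chr13:26539139-26688948 and differed widely between lines. In COLO668 it had 11.03 and 10.92 in 552A arrays of day 2, against 10.78 and 10.72 in DMSO arrays. At day 4 it had 11.25 and 11.35 under 552A, against 11.05 and 11.06 under DMSO. At day 7 it had 11.71 and 11.69 under 552A, against 10.87 and 11.23 under DMSO. The 552A arrays were above on each day and the difference was widest at day 7, where 1 array of each arm is in doubt. All 552A arrays lay above in 22.1% of all gene and line-day pairs. WASF3 rose in COLO668 by 0.37 ± 0.08 over the days (limma, adjusted p = 0.000342), where 12.3% of genes were called up. It was 0.65 at day 7 (limma, adjusted p = 0.000348). Without the arrays in doubt, which leaves 1 array per arm at day 7, the mean over days was 0.32.

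H1417 and H69 had WASF3 estimates of 0.29 ± 0.14 and 0.28 ± 0.14, and NCI-H526 had -0.16 ± 0.08, none of them called. NCI-H526 arrays under 552A lay below the DMSO arrays on each of the 3 days. That order held in 23% of all gene and line-day pairs. The line was called down without the arrays in doubt, none of them its own (limma, adjusted p = 0.031). Equality over the 6 time course lines was rejected (limma, moderated F, adjusted p = 0.00117). The mean at day 4 was 0.09 ± 0.06 (95% interval -0.04 to 0.23, adjusted p = 0.572), higher in 7 of 9 lines.

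In the WASF3 signals of DMSO arrays, NCI-H446 at 11.10 ± 0.17 (SD, n = 7), NCI-H526 at 11.08 ± 0.08 (n = 6) and COLO668 at 10.95 ± 0.20 (n = 6) overlapped at the top. NCI-H146 followed at 10.48 ± 0.15 (n = 6), apart from its neighbours. NCI-H510 at 9.07, H69 at 8.95, H2171 at 8.69 and H1417 at 8.10 came next. SHP-77 was lowest at 5.29 ± 0.22 (n = 6), below the lower quartile of the arrays. Its WASF3 changes are therefore not read on their own, and its distance from the other lines is not given. These dim values still enter the WASF3 mean at day 4, the test of equality and the changes between day 2 and day 7. With 1 line left out, the WASF3 mean at day 4 ran from 0.069 to 0.14.

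Time in culture was examined in the DMSO arrays of the 6 time course lines, a contrast the choice of genes did not use. None of the 7 genes was called for day 7 minus day 2 by limma, and none at an unadjusted p below 0.05, against a background of 0.00651% and 9.83% of genes. CYFIP1 had 0.01 ± 0.05 (SE, n = 6 lines, adjusted p = 0.973). Over the same lines the change of the 552A response between day 2 and day 7 called 0 of 6 partner genes, as it called 0 of all genes, and 6.47% of genes had an unadjusted p below 0.05. WASF3 alone of the partner genes was among the latter, with 0.16 ± 0.07 (unadjusted p = 0.0436, adjusted p = 0.75), and 5 of 6 lines had a higher value at day 7.

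RNA integrity moved with several subunits. After each line was centred, the ACTB 3' minus 5' signal had r = -0.87 with ABI1 and r = -0.759 with BRK1 over 88 arrays. The value was 0.621 for WASF2, 0.354 for WASF3, 0.346 for CYFIP2, 0.01 for NCKAP1 and -0.245 for CYFIP1. These arrays share lines and scaling, and 5 arrays of day 7 set most of the spread on the x axis. Each r is that of the probe set standing for the gene, and the other probe sets were not examined in this way. The part of RNA integrity in the partner changes was not tested. For CYFIP1, all 552A arrays lay above all DMSO arrays in 21 of 21 line-days with all arrays. Leaving out the arrays in doubt (21 of 21) or day 7 (15 of 15) cannot make such groups overlap. Nothing is therefore read from these 2 counts.

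**Figure D4:**
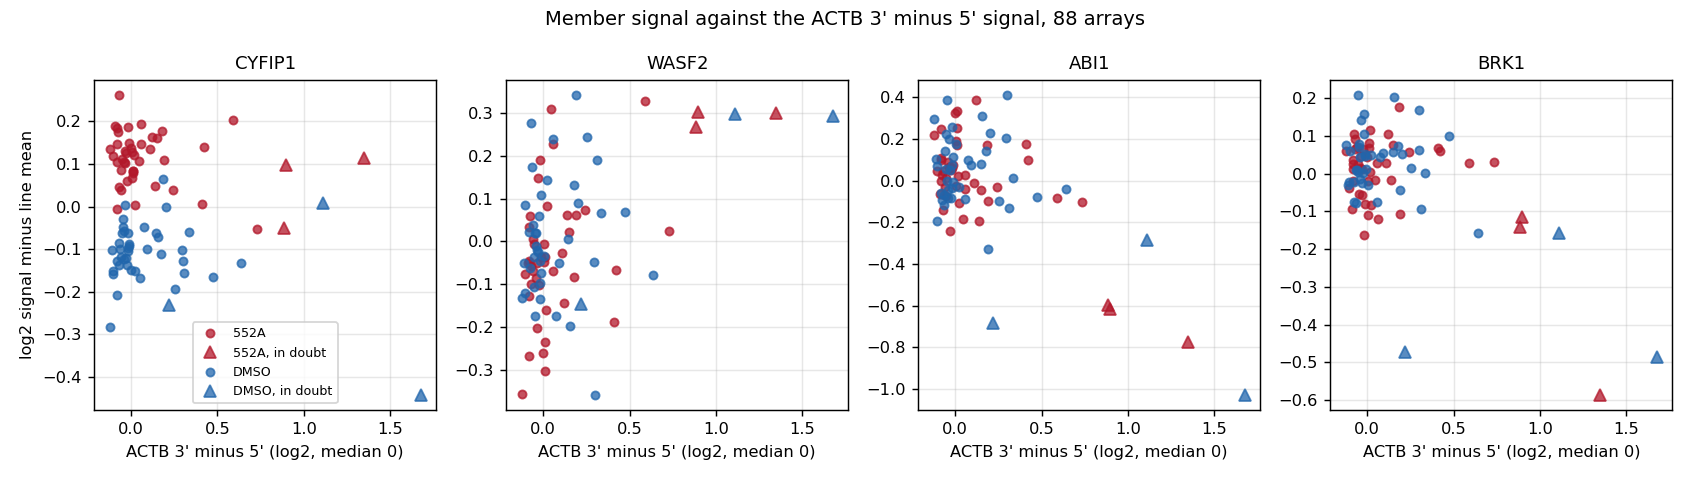
Log2 signal minus the line mean for 4 genes (y axis) against the ACTB 3' minus 5' signal with its median at 0 (x axis) in 88 arrays, 552A in red and DMSO in blue, with triangles for the 6 arrays in doubt. ABI1 and BRK1 are lower in arrays with a high ACTB value, while in CYFIP1 the 552A and DMSO arrays lie mostly apart at low ACTB values.

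By a rule on likeness, the genes whose line-day changes were most like those of CYFIP1 were NLRX1 (r = 0.743), PPP2R2C (0.727), ANGPT2 (0.716), LINC03007 (0.712) and FNDC4 (0.710), over 21 line-days that share arrays. ANGPT2, the angiopoietin, changed by -0.14 to 1.56 over these line-days, and PPP2R2C, a regulatory subunit of a phosphatase, by -0.55 to 0.69. Their likeness is one of pattern, since of these 5 only NLRX1 and FNDC4 had no change above the largest of CYFIP1. PPP2R2C was lower under 552A in most line-days, where CYFIP1 was higher in all. PPP2R2C, ANGPT2, LINC03007 and FNDC4 had their largest change in H1417, as CYFIP1 did. LINC03007 had 2.39 there and at most 0.48 in any other line-day, and its DMSO means of 6.22 to 7.35 were below the filter level of 7.41. How far each r rests on H1417 was not tested. The partner genes had r between -0.24 for ABI1 and 0.31 for WASF3. In DMSO levels at day 4 over 9 lines, FMC1 (r = 0.958), SSBP1 (0.938) and RBM12 (0.923) were most like CYFIP1.

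The pathway around the complex was read from 10 lists with 138 genes, of which 127 were tested. Over 1143 pairs of gene and line, 95 were called up and 60 down, where 5.94% of all gene and line pairs were called up and 4.38% down. The Arp2/3 subunits had 0 pairs up and 2 down of 81, or 2.47%, beside the 10.3% of all pairs. ARPC1B, a subunit of the complex body, fell in NCI-H526 by 0.26 on the log2 scale, and ARPC2, which anchors the daughter filament, fell in COLO668 by 0.23. Rac and related GTPases had 3 pairs up and 1 down of 81, or 4.94%. RAC2, the Rac of blood cells, rose by 0.27 in SHP-77, ARF6 rose by 0.22 in NCI-H510, and RHOG fell by 0.24 in NCI-H526. These shares describe the lists and were not tested against each other.

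Regulators of Rac moved in both directions. Rac exchange factors, which load Rac with GTP, had 22 pairs up and 18 down of 198, or 20.2%, beside 10.3% of all pairs. DOCK4 rose in 4 lines and most in H1417, by 1.32 ± 0.13 (limma, adjusted p = 2.28e-11), and ELMO1, the partner of DOCK proteins, rose in COLO668 by 0.93 ± 0.09 and fell in NCI-H526 by 0.30. DOCK10 fell in 3 lines, by 0.76 in H1417 where both means were dim, and ARHGEF6 fell in H2171 by 0.52 and rose in NCI-H146 by 0.31. VAV2 fell by 0.25 ± 0.03 at day 4 (SE, n = 9 lines, limma, adjusted p = 0.027). Averaged over the days of a line, its changes ran from -0.13 to -0.34, all 9 negative, and 5 lines were called down. Its place among the 8 genes called at day 4 over lines was known from earlier results of these data.

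The median change of the 22 exchange factors at day 4 was 0.03, against 0.00076 for all genes. Rac GTPase activating proteins, which switch Rac off, had 15 pairs up and 4 down of 108, or 17.6%, beside 10.3% of all pairs. Their median change at day 4 was 0.09. ARHGAP24, a Rac-directed member, rose in 5 lines, most in NCI-H510 by 0.66 ± 0.08, and its relative ARHGAP22 rose in 3, most in COLO668 by 0.94 ± 0.07. ARHGAP25 fell in H69 by 0.51 and rose in NCI-H526 by 0.37, and SRGAP1 fell in H1417 by 0.48.

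Proteins that bind the WAVE complex had 18 pairs up and 13 down of 144, or 21.5%, beside 10.3% of all pairs. RAPH1 (lamellipodin), which brings the complex to the leading edge, rose in 5 lines, most in NCI-H446 by 0.52 ± 0.07 (limma, adjusted p = 2.97e-08). PCDH17, a protocadherin, fell in 3 lines, with -1.63 ± 0.09 in NCI-H510. NHS, which carries a WAVE homology domain, rose in 2 lines and fell in 4, with 0.74 in H2171 and -0.82 in NCI-H510. Other nucleation factors had 6 pairs up and 1 down of 117, or 5.98%, among them WIPF3 with 0.82 in COLO668. NCKAP1L, the blood cell relative of NCKAP1, rose in NCI-H146 by 0.31 ± 0.09, and WASHC3 of the WASH complex fell in NCI-H510 by 0.36.

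Regulators of the Arp2/3 complex had 12 pairs up and 6 down of 99, or 18.2%, beside 10.3% of all pairs. Coronins led these regulators. CORO2A rose in 3 lines, by 1.29 ± 0.10 in COLO668, and CORO2B rose in 4 and fell in 2, with 0.78 in COLO668 and -0.75 in NCI-H446. CORO1A rose in 2 lines, with 0.31 in NCI-H526, and fell in 3, with -0.49 in COLO668. Actin filament proteins had 15 pairs up and 13 down of 225, or 12.4%. The formin FMNL2 rose in 2 lines, by 1.29 ± 0.10 in H1417, and fell in 1, and the bundling protein FSCN1 rose by 1.23 ± 0.09 in COLO668, where both means were dim. DIAPH2 and VIL1 fell in NCI-H526 by 0.85 and 0.69.

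The translation partners of CYFIP had 3 pairs up and 1 down of 72, or 5.56%, beside 10.3% of all pairs. FXR1, a relative of FMRP, rose in 2 lines, most in COLO668 by 0.26 ± 0.05, and EIF4EBP1, an inhibitor of eIF4E, rose by 0.16 in SHP-77 and fell by 0.17 in COLO668. The neighbours of CYFIP1 on chromosome 15 had 1 pair up and 1 down of 27, or 7.41%. NIPA1, a magnesium transporter, rose in COLO668 by 0.26 ± 0.05, and NIPA2 fell in NCI-H526 by 0.17. CYFIP1 was higher under 552A in both of these lines, beside NIPA1 called up in COLO668 and NIPA2 called down in NCI-H526.

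**Figure D5:**
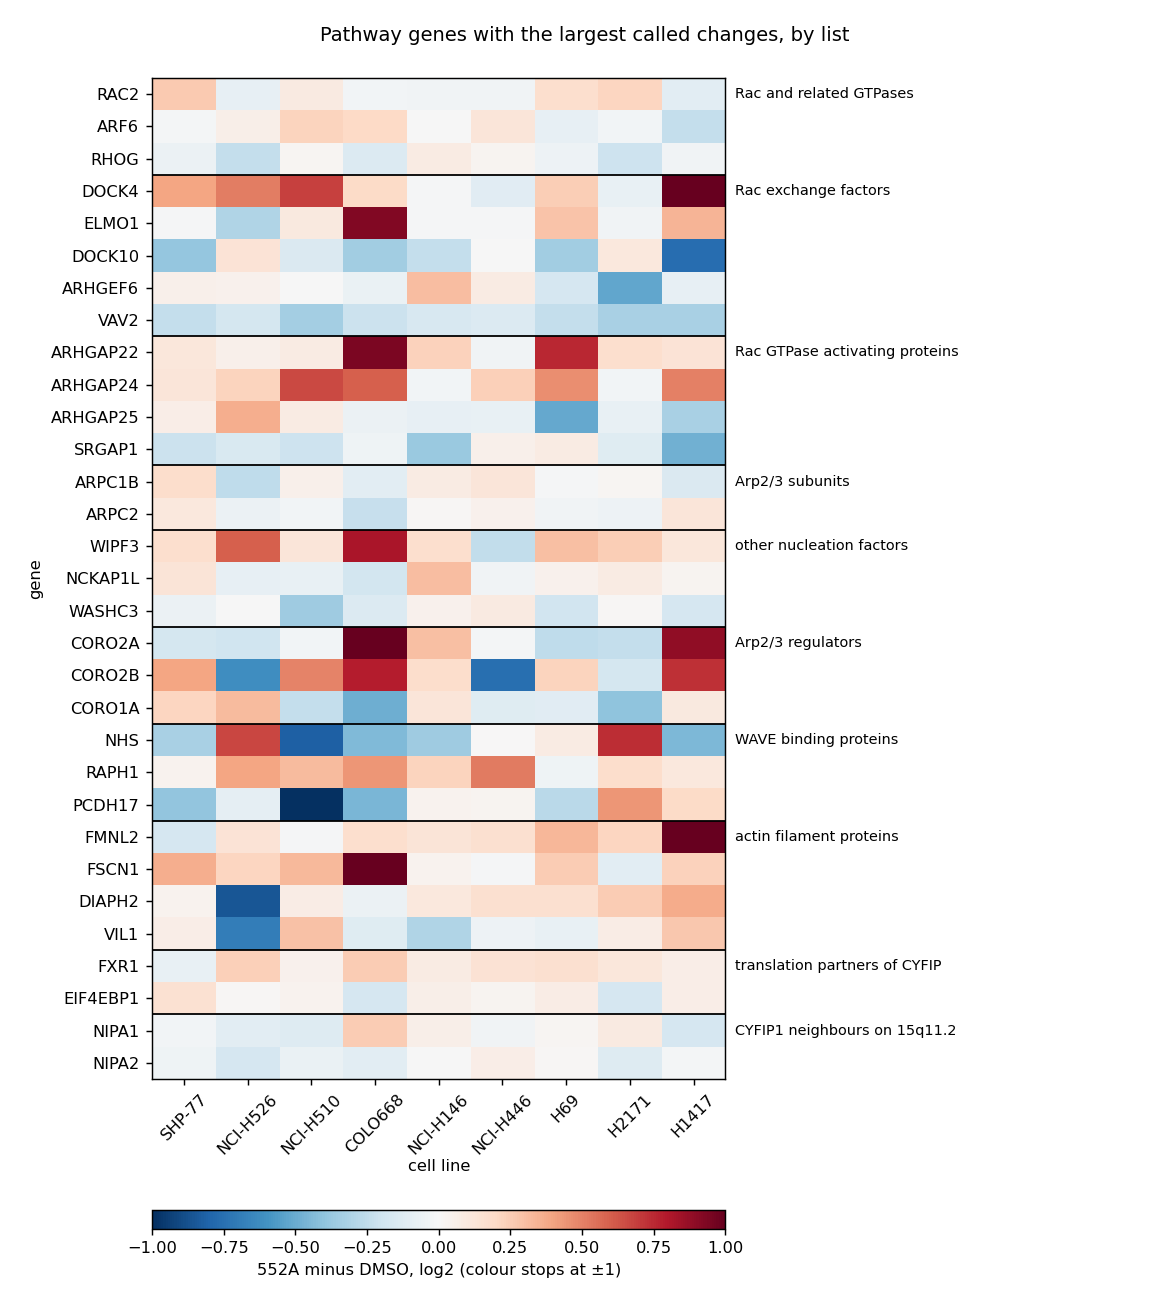
Log2 change of 552A against DMSO in each of 9 lines (columns) for the pathway genes named in the text (lines of the map, grouped by list), with red for higher and blue for lower; the colour stops at ±1. VAV2 is blue in all 9 lines, while DOCK4, CORO2B and NHS differ in direction or size between lines.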

How the data were processed

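Arrays of 9 SCLC lines under 552A or DMSO were grouped by line, treatment and day from the labels. Per the labels, RNA was hybridised to Affymetrix HG-U133 arrays. The authors deposited 1 log2 expression value per probe set and array. Which program, background correction and scaling made them is not given in the sources used here, and they were not rescaled. The number of arrays limits the precision.

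The members, lists and tests were chosen with earlier results of these data known. A list of array symbols named 1 gene for 41091 of 54675 probe sets, more than 1 for 1801 and no gene for 11721, with 62 controls. No symbol needed an update. A probe set was kept if any group mean exceeded 7.41, the overall median. The one with the highest mean stood for its gene, with those ending in _x_at set aside where another existed, and a mean below 6.091 was called dim. Tests used limma 3.58.1 in R 4.3.3 with version 1.17.8 of data.table, two-sided, adjusted by Benjamini-Hochberg over 15352 genes and called below 0.05. A fit with 42 group means had 46 residual and 6.52 prior degrees of freedom, and a line's change was the equal mean over its days. Shared changes used the line as the replicate. Counts were planned for 8 partner genes, but WASF1 and ABI2 are not analysed here, so 6 entered. The scripts were tested on simulated data. Figures used matplotlib 3.10.9, numpy 2.4.6 and pandas 2.3.3 under Python 3.11.15.

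Pathway genes were named by a rule of the 2 genes per direction and list with the largest called change in any line, plus those called at day 4 over lines. Likeness was Pearson's r over all genes tested, naming the top 5 for changes and the top 3 for DMSO levels. The alternatives tried were no filter or a stricter one, quantile normalization, a mean over a gene's probe sets, each array or line left out, 6 arrays in doubt left out, a line's own arrays, day 4 alone, the replicate number as a block and, added after the data were seen, day 7 left out.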

Additional observations from a re-analysis of the deposited data

Results flagged for a closer look

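SHP-77 stood far from the other 5 lines in the DMSO change between day 2 and day 7 of 2 subunits. ABI1 had -0.69 in SHP-77, where the nearest other line had -0.03, and BRK1 had -0.31, where the nearest had -0.02. These were 2 of 28 sets of lines or of replicate arrays examined, and chance marks about 1 set in 20. The first of the DMSO SHP-77 arrays of day 7 had an ACTB 3' minus 5' signal of 1.68, and without the arrays in doubt the values were -0.18 and -0.06. The part of RNA integrity in them was not tested.

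The change of 552A against DMSO differed among the 6 time course lines for CYFIP2 (limma, moderated F, adjusted p = 0.00246), from -0.18 in COLO668 to 0.27 in SHP-77. It also differed for WASF3 (adjusted p = 0.00117), from -0.16 in NCI-H526 to 0.37 in COLO668. Over all genes 38.1% had such a difference.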

How the results depend on the processing

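Calls within lines rested on few arrays. Pairs of partner gene and line called up were 2, and became 4 without the arrays in doubt, 4 with the replicate block, 4 with a line's own arrays, 0 with day 4 alone and 0 without day 7. Pairs called down were 0, and became 1 in each of quantile normalization, no arrays in doubt, the replicate block and a line's own arrays. Leaving out 1 array gave 2 to 3 up and 0 to 1 down, where CYFIP2 in COLO668 was gained without COLO668 DMSO day 7 replicate 2 (-0.24) or without NCI-H446 DMSO day 4 replicate 1 or 3 (-0.18 each), CYFIP2 in NCI-H526 also without either of these NCI-H446 arrays (0.17 each), and WASF2 in COLO668 without COLO668 DMSO day 7 replicate 1 (0.21). Pathway pairs up were 95, and 44 with day 4 alone, 57 without day 7 and 89 to 116 with 1 array left out. Pathway pairs down were 60, and 26, 36 and 54 to 81 under the same settings. CYFIP2 in SHP-77 kept its sign but not its call with day 4 alone (0.23) and without day 7 (0.22), as did WASF3 in COLO668 (0.25 and 0.24). With the mean of both probe sets CYFIP2 in SHP-77 was 0.18 (adjusted p = 0.0465). Fewer arrays entered the contrasts with day 4 alone and without day 7, while the mean of both probe sets used all arrays. Partner genes whose response differed among lines were 2, and 2 to 3 with 1 array left out.

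At day 4 over lines no setting called a partner gene. NCKAP1 turned to 0.056 with the mean of its probe sets, and BRK1 to -0.0096 without the arrays in doubt. With 1 line left out, CYFIP2 ran from -0.021 to 0.049, NCKAP1 from -0.044 to 0.011, ABI1 from -0.0076 to 0.067 and BRK1 from -0.0056 to 0.021. With 1 array left out, CYFIP2 ran from -0.00067 to 0.037, NCKAP1 from -0.028 to 0.0024 and BRK1 from -0.0096 to 0.028. The CYFIP1 mean at day 4 stayed between 0.22 and 0.26 with a line left out, and between 0.24 and 0.25 with an array left out. Its DMSO range of 0.80 moved to 0.71 with quantile normalization, and lay between 0.79 and 0.84 with an array left out. CYFIP1 had all 552A arrays above all DMSO arrays in 20 of 21 line-days with quantile normalization. The count was 15 of 15 without day 7. It was 21 of 21 without the arrays in doubt, with the mean of a gene's probe sets and with any 1 array left out. Apart from quantile normalization, these counts were fixed by the 21 of 21 with all arrays. Leaving arrays out cannot make separate groups overlap, and CYFIP1 has a single probe set.

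Replicate numbers did not consistently pair the arrays. Of 42 same-numbered pairs, 21 had a correlation over 0.1, and the range was -0.489 to 0.537, so the replicate block above shares only a number. Where both arms held 2 arrays, the pairs of a line-day gave the same value by construction. The 42 values are thus not all separate. The block added CYFIP2 in NCI-H526 (0.17), COLO668 (-0.18) and H1417 (0.30) to the calls. The cause of the other changes was not tested.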
